A study of Mus musculus with 57 samples.

Results

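This report follows 10 genes that carry cholesterol out of cells, store it or sense it, in adipose tissue of mice with a mutated mitofusin 2. The genes were chosen by name, as the counterpart of sterol synthesis, and all 10 were present among the 52853 genes with counts and passed the low-count filter in every comparison. Abca1, Abcg1 and Scarb1 are efflux transporters or the receptor for high-density lipoprotein, and Nr1h3 and Nr1h2 encode the liver X receptors (LXR) α and β. Apoe and Apoc1 are apolipoproteins, Soat1 esterifies cholesterol for storage, Npc1 exports it from lysosomes, and Mylip marks the low-density lipoprotein receptor for degradation.

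Wild-type (WT) mice and mice homozygous for the Mfn2 R707W knock-in (KI), all male C57BL/6J, were compared. They were given a high-fat diet (HFD, 45% of calories from fat) or chow for 6 months from 5 weeks of age. Bulk polyA RNA was sequenced from inguinal white adipose tissue (WAT) on HFD (8 WT and 8 KI mice), inguinal WAT on chow (7 WT and 6 KI) and brown adipose tissue (BAT) on HFD (6 WT and 6 KI). The allele was made by CRISPR-Cas9 and the colony was bred from 1 founder, it is a point mutation in the germline that gene counts cannot check, and mice of mixed genotype were housed together. Libraries held 17572752 to 25680411 counts in inguinal WAT on HFD, 8668279 to 11720458 on chow and 8042591 to 10522554 in BAT.

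Cells that hold more cholesterol than they need make oxysterols, which bind LXR. LXR pairs with the retinoid X receptor, and in macrophages and several other cell types the pair switches on Abca1, Abcg1, Apoe, Apoc1 and Mylip, so that cholesterol leaves on apolipoprotein particles and less is taken up. When sterols run short, the factor SREBP2 instead drives cholesterol synthesis. Adipocytes hold a large store of cholesterol, mostly unesterified, in and around the lipid droplet, and Apoe is made by adipocytes as well as macrophages. In bulk tissue, fewer cells of a type and less RNA per cell cannot be told apart.

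Markers separated the tissues as labelled: the summed level of 6 brown adipocyte markers was 9304 to 15480 CPM (counts scaled to library size) in BAT and 11.5 to 484 CPM in inguinal WAT. Some libraries also had high levels of skeletal muscle, lymphocyte or epithelial markers, here called markers of another tissue. The limits used below were set after seeing the data, and the source of this RNA was not tested. Inguinal WAT of KI mouse 4 on chow had 56660 CPM of skeletal muscle markers, against at most 3573 CPM in any other mouse. On HFD, lymphocyte markers passed 100 CPM in WT mice 2 and 6 and KI mouse 2. On chow they passed it in KI mouse 3 and, by little at 105 CPM, in KI mouse 1. Epithelial markers passed 100 CPM in WT mouse 4 on chow. Muscle markers also passed 2000 CPM in inguinal WAT of KI mouse 3 on HFD and in BAT of WT mice 1 and 2. Every comparison was repeated without these 10 libraries, and those values stand below wherever they changed a call.

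The promoters of Abca1 and Apoe are shown because Abca1 is the textbook LXR target and Apoe changed the most with genotype among the members. Both are RefSeq windows on GRCm38.p6, 250 bases before to 50 after the annotated start, read on the minus strand, at chr4:53159846-53160145 for Abca1 and at chr7:19699139-19699438 for the most upstream of the 3 Apoe starts. Capitals mark, in order along Abca1, an E box (CACGTG, 147 bases before the start), a looser form of the LXR repeat and a TATA box (TATAAA, 29 bases before the start). The printed Apoe window holds none of the motifs searched, and its sequence is in lower case throughout.
Abca1: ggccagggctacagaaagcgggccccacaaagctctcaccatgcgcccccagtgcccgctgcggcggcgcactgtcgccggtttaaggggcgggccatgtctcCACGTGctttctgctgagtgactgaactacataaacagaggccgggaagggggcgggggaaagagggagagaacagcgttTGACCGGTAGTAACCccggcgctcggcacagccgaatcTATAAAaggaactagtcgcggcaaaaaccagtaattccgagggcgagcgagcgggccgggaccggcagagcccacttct
Apoe: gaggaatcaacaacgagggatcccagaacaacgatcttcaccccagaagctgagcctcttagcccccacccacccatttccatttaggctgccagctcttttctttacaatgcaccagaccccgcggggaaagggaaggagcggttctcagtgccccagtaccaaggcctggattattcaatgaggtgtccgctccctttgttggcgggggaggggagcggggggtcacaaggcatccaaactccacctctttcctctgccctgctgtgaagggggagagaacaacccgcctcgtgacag

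LXR and its partner bind a pair of core sites, AGGTCA, set 4 bases apart in the same direction (DR4). Searched on both strands, the exact repeat was in none of the 9 windows found for 6 members (Abca1, Nr1h2, Nr1h3, Apoe, Soat1 and Mylip), and in 0.0152% of all 32851 promoters of that length. The single core site was also in none of the 9 windows, against 16.3% of all promoters. A looser form, GGTNA followed 5 bases later by GGTCA (N is any base), matched in Abca1 alone, 67 bases before its start and on the other strand, against 0.207% of all promoters. The E box was in Abca1 alone (7.15% of all promoters), and TATAAA was in one window each of Abca1, Apoe and Mylip (13.6% of all promoters). The looser form and the TATA box were added to the motifs first planned. A match of letters is a description of the sequence and says nothing of binding.

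Apoe was by far the most abundant of the 10 genes. Per length, as TPM, counts scaled by gene length and then by library total, inguinal WAT of WT mice on HFD held 1982 to 3654 TPM of Apoe (median 2778), which placed its mean 27th of all genes. Apoc1 followed at a median of 192 TPM, then Mylip at 114, Nr1h3 at 104, Nr1h2 at 68.1, Scarb1 at 46.2, Abca1 at 41.6, Abcg1 at 22.3, Npc1 at 6.27 and Soat1 at 4.29 TPM. The ranges over mice overlapped between Mylip and both of its neighbours, between Nr1h2 and Scarb1, between Scarb1 and Abca1, and between Npc1 and Soat1. The order differed in BAT of WT mice, where Apoc1 (660 to 811 TPM) overlapped Apoe (701 to 1644 TPM), and Soat1 was lowest at a median of 0.609 TPM. Soat1 had 9 to 44 counts per BAT library, so its BAT values are the least precise here.

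**Figure D1:**
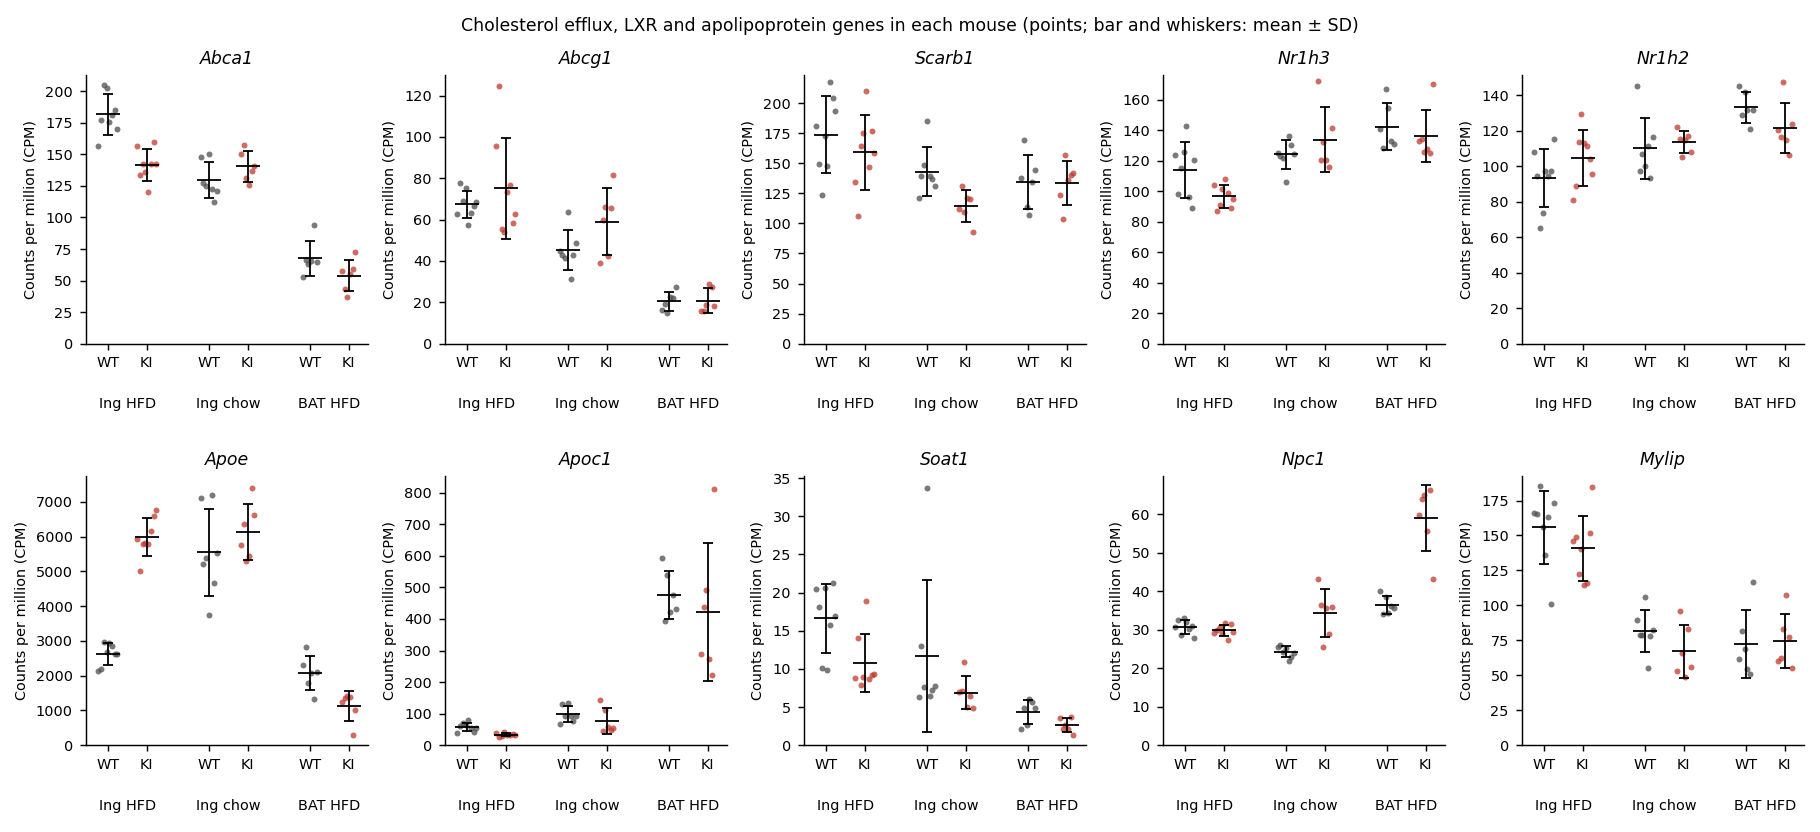
Level in CPM of each gene in each mouse (points), with the mean and SD of each group (bar and whiskers), for WT and KI mice in inguinal WAT on HFD, inguinal WAT on chow and BAT on HFD. Each y axis starts at 0. Apoe on HFD separates the genotypes in inguinal WAT (2120 to 2969 CPM in WT, 5013 to 6776 CPM in KI), and Npc1 separates them in BAT.

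The first comparison asks what the mutation does to these genes in inguinal WAT on HFD. Apoe rose 2.27-fold in KI mice, whereas its neighbour Apoc1 and the transporter Abca1 fell. The other 7 genes, among them both LXR genes, were not called. Calls here rest on an adjusted p under 0.01 in edgeR, reached by 3 of the 10 genes and by 11.5% of the 16471 genes tested. The 10 genes had a median log2 fold change of -0.14, beside 0.0055 for all genes tested.

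Apoe, which carries lipid between cells and binds the low-density lipoprotein receptor family, had a lowest, median and highest level of 2120, 2656 and 2969 CPM in WT mice and 5013, 5877 and 6776 CPM in KI mice. The lowest KI mouse exceeded the highest WT mouse, a separation with KI on top that 2.38% of all genes tested showed. The log2 fold change was 1.18 (SE 0.0939, adjusted p 7.38e-08, 8 and 8 mice). Apoe made up a median of 0.295% of all counts in WT mice and 0.681% in KI mice, and its mean TPM ranked 8th of all genes in KI mice.

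Apoc1, a small apolipoprotein that inhibits lipoprotein lipase and receptor uptake, moved the other way. It had 39.8, 57.6 and 80.7 CPM (lowest, median, highest) in WT mice and 24.8, 32.9 and 40.8 CPM in KI mice, so that only the ends of the ranges overlapped. Its log2 fold change was -0.81 (SE 0.131, adjusted p 2.10e-04). In one fit of all 6 groups the adjusted p was 0.0114.

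Apoc1 (chr7:19689481-19692660) and Apoe (chr7:19696109-19699188) are neighbours on the minus strand of GRCm38, and their ratio within a mouse does not depend on how libraries are scaled. Apoc1 TPM divided by Apoe TPM was 0.0464 to 0.0786 in WT mice and 0.0139 to 0.0201 in KI mice on HFD, with no overlap. The ratio is made of the same values as the calls of Apoe and Apoc1 above, so it is no separate test of them. On chow the ratio was 0.0270 to 0.102 in WT mice and 0.0185 to 0.0718 in KI mice, with overlap. Without the 4 chow libraries with markers of another tissue it was 0.0270 to 0.0720 in the 6 remaining WT mice. It was 0.0185 to 0.0236 in the 3 remaining KI mice, with no overlap. KI mice 1 and 3, left out for lymphocyte markers, had ratios of 0.0718 and 0.0606, within the WT range. KI mouse 1 had 105 CPM of these markers against the limit of 100, so the separation rests on where that limit was set. In BAT the ratio was 0.402 to 1.02 in WT mice and 0.569 to 2.31 in KI mice. Of the 9 genes within 50 kb of Apoe, 6 were tested in inguinal WAT on HFD and Apoe and Apoc1 were the 2 called. Tomm40, the closest gene on the other side, was not called (0.18, adjusted p 0.251).

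**Figure D2:**
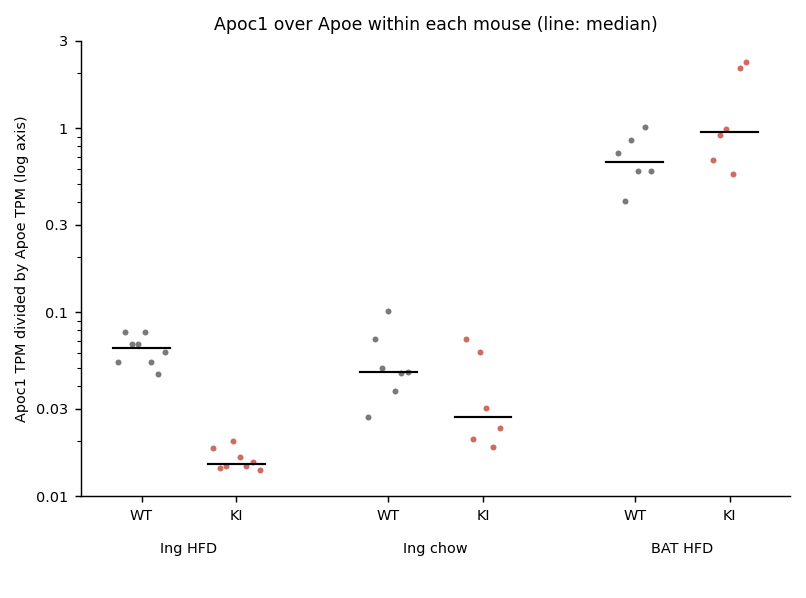
Apoc1 TPM divided by Apoe TPM within each mouse (points, log axis), with the median of each group (line). In inguinal WAT on HFD the KI mice (0.0139 to 0.0201) lie below all WT mice (0.0464 to 0.0786), while the genotypes overlap in BAT and, with all mice plotted, on chow. Chow libraries with markers of another tissue were also left out, by limits set after seeing the data. The other 3 KI mice (0.0185 to 0.0236) then lie below the other 6 WT mice (0.0270 to 0.0720).

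Abca1, which loads cholesterol and phospholipid onto lipid-poor apolipoproteins, had 157, 179 and 205 CPM (lowest, median, highest) in WT mice and 120, 142 and 160 CPM in KI mice. The ranges met only at their edges. As TPM, which is scaled by library total, the medians of Abca1 ran the other way, 41.6 in WT and 44.2 in KI mice. The log2 fold change was -0.36 (SE 0.0709, adjusted p 0.00113). Without the libraries with markers of another tissue it was also -0.36, with an adjusted p of 0.0128. Abcg1, which passes cholesterol on to mature high-density lipoprotein, had 57.6 to 77.5 CPM in WT mice and 54.2 to 125 CPM in KI mice and was not called (log2 fold change 0.15, adjusted p 0.535). Its 2 highest values, 125 and 95.7 CPM, belonged to KI mice 2 and 1. Scarb1, the high-density lipoprotein receptor, had a log2 fold change of -0.13 (adjusted p 0.508). Its TPM medians also ran the other way, 46.2 in WT and 63.3 in KI mice.

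Neither LXR gene was called. Nr1h3, the isoform prominent in liver, adipose tissue and macrophages, had a median of 118 CPM in WT mice (88.8 to 143) and 96.6 CPM in KI mice (86.9 to 108), with a log2 fold change of -0.24 (SE 0.0890, adjusted p 0.0624). Nr1h2, the isoform present in most tissues, had 65.3 to 115 CPM in WT mice and 81.1 to 130 CPM in KI mice (log2 fold change 0.16, adjusted p 0.331). The genotypes overlapped for both. As TPM the medians of Nr1h3 ran the other way, 104 in WT and 124 in KI mice.

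Soat1, the esterifying enzyme of most tissues outside liver and gut, had 9.88, 17.5 and 21.2 CPM (lowest, median, highest) in WT mice and 7.91, 9.12 and 18.9 CPM in KI mice. Of the 8 KI mice, 6 lay below every WT mouse, and KI mice 2 and 5 lay among the WT mice. The log2 fold change of -0.63 (SE 0.207) missed the threshold (adjusted p 0.0372), and passed it without KI mouse 5 (-0.80, adjusted p 0.00386). That mouse also had the highest summed level of 12 macrophage markers on HFD, 1836 CPM, against 645 to 931 CPM in the other KI mice and 862 to 1418 CPM in WT mice. Within groups, over these 16 mice, the correlation of Soat1 with 20 macrophage markers had a median of r = 0.66. For the other members this median ran from -0.39 (Abca1) to 0.52 (Scarb1), with -0.14 for Apoe. All these values share library and depth. Of the 12 macrophage markers 1 was called lower in KI mice (Itgax, log2 fold change -1.45), beside 11.5% of all genes tested that were called. Of the 8 lipid-associated macrophage markers 1 was called lower (Ctsd, -0.65), and no marker of either list was called higher. No marker of either list was at 0 in any group, and the part of these markers in the Soat1 values was not tested.

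Npc1 and Mylip were not called on HFD. Npc1 had 27.9 to 33.0 CPM in WT mice and 27.4 to 31.7 CPM in KI mice, a log2 fold change of -0.05 (SE 0.0568, adjusted p 0.630), the tightest of the 10 genes. Mylip had a log2 fold change of -0.15 (adjusted p 0.399). As TPM the medians ran the other way for both genes. They were 6.27 in WT and 8.39 in KI mice for Npc1, and 114 in WT and 138 in KI mice for Mylip.

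The same question was asked in inguinal WAT on chow. Apoe overlapped widely between the genotypes, with 3749, 5371 and 7184 CPM (lowest, median, highest) in WT mice and 5284, 6049 and 7384 CPM in KI mice. Its log2 fold change was 0.15 (SE 0.150, adjusted p 0.583). Apoc1 (-0.35, adjusted p 0.501), Abca1 (0.12, adjusted p 0.462), Nr1h3 (0.11, adjusted p 0.495) and Nr1h2 (0.05, adjusted p 0.787) were not called either. The value of Apoc1 depended on the libraries with markers of another tissue. Without them it was -0.91 (SE 0.186, adjusted p 0.0129, 6 WT and 3 KI mice), still not called. Npc1 was the single gene of the 10 called, beside 3.23% of the 14629 genes tested.

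Npc1, which hands cholesterol from the lysosomal lumen to the membrane, had 22.0, 24.1 and 26.1 CPM (lowest, median, highest) in WT mice and 25.6, 35.7 and 43.2 CPM in KI mice on chow. Of the 6 KI mice, 5 lay above all WT mice. The log2 fold change was 0.49 (SE 0.106) and the adjusted p of 0.00993 was just under the threshold. Leaving out 1 mouse at a time kept the log2 fold change between 0.43 and 0.56, but the call held only without KI mouse 3 or KI mouse 5, and the adjusted p reached 0.0229 without the others. The summed level of 6 brown adipocyte markers was also higher in these KI mice (78.8 to 484 CPM) than in WT mice (17.8 to 63.0 CPM). Of these markers Ucp1, Dio2 and Elovl3 did not pass the low-count filter on chow. Among the others, tested singly, Cidea was called higher (log2 fold change 3.02). Cox7a1 (2.00, adjusted p 0.0505) and Ppargc1a (-0.70, adjusted p 0.238) were not called. The part of these markers in the Npc1 values was not tested.

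Single libraries weighed on some of the genes not called on chow. Soat1 had 33.6 CPM in WT mouse 4, against 6.29 to 12.98 CPM in the other WT mice and 4.90 to 10.8 CPM in KI mice, and that mouse also had the highest macrophage marker sum of all mice, 2677 CPM. Its log2 fold change was -0.79 (SE 0.419, adjusted p 0.269), and -0.20 without that mouse. Scarb1, at -0.32 (adjusted p 0.0838), had its highest WT value, 185 CPM, in the same mouse. Abcg1 had 31.2 to 63.6 CPM in WT mice and 38.9 to 81.5 CPM in KI mice (log2 fold change 0.38, adjusted p 0.214). Without the 4 chow libraries with markers of another tissue, Abcg1 was called higher in KI mice (0.71, SE 0.126, adjusted p 0.00413, 6 WT and 3 KI mice). Npc1 was not called without them (0.48, adjusted p 0.0136).

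In BAT on HFD, Npc1 was again the gene of the 10 that was called, beside 1.83% of the 13267 genes tested. It had 34.1, 35.9 and 40.1 CPM (lowest, median, highest) in WT mice and 43.2, 62.0 and 66.3 CPM in KI mice. The genotypes did not overlap, with KI on top, as for 2.26% of all genes tested. The log2 fold change was 0.66 (SE 0.107, adjusted p 0.00170), a 1.58-fold rise, and it was called without any one of the 12 mice.

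Exons of Npc1 overlap those of Rmc1, a lysosomal trafficking gene on the opposite strand, and whether the counting used strand is not given in the sources used here, so reads in the shared stretch could belong to either. Rmc1 rose in BAT as well (log2 fold change 0.52, adjusted p 0.00565). Rmc1 fell in inguinal WAT on HFD (-0.35, adjusted p 0.00298) while Npc1 was not called. On chow Rmc1 was not called (0.19, adjusted p 0.201).

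Apoe in BAT had 1334, 2090 and 2821 CPM (lowest, median, highest) in WT mice and 298, 1300 and 1415 CPM in KI mice. Of the 6 KI mice, 3 lay just above the lowest WT mouse and 3 lay below it, with KI mouse 5 far below all others. The log2 fold change of -0.92 (SE 0.305) was not called (adjusted p 0.0820). In one fit of all 6 groups it was -0.88 and was called (adjusted p 0.00348). Soat1 (-0.78, adjusted p 0.113) and Abca1 (-0.35, adjusted p 0.172) were not called, and Abcg1, Scarb1 and Mylip had log2 fold changes between -0.04 and 0.01.

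**Figure D3:**
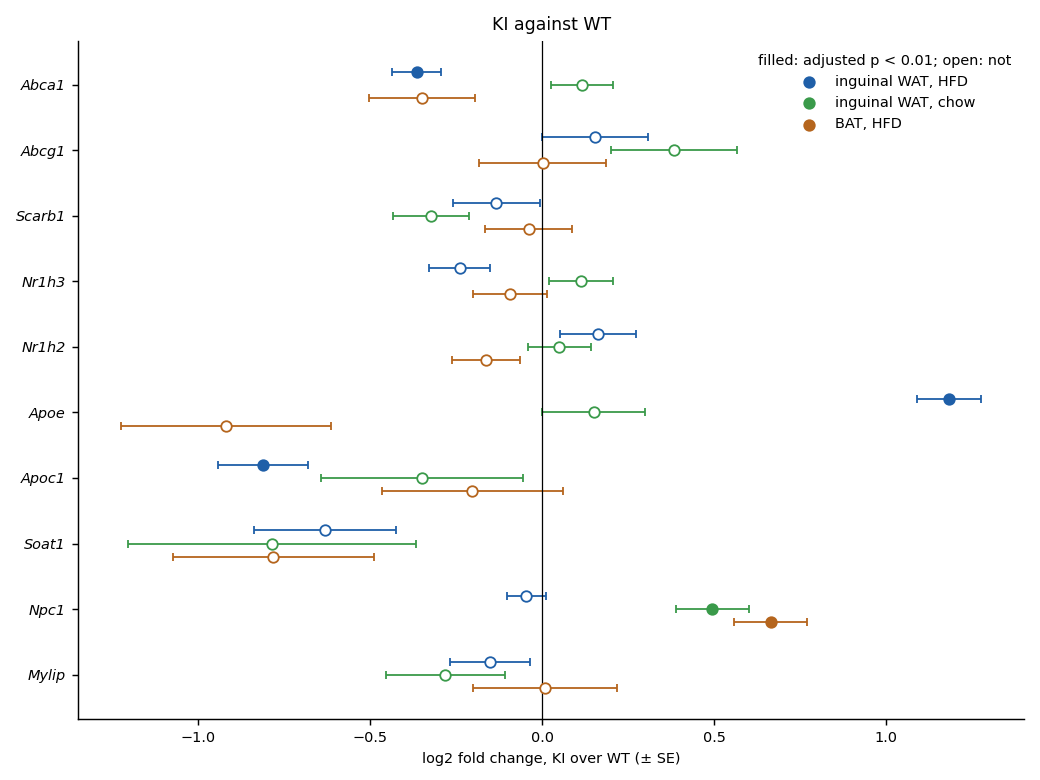
Log2 fold change of KI over WT (points) with its standard error (whiskers) for each gene in inguinal WAT on HFD, inguinal WAT on chow and BAT on HFD, filled where the adjusted p is below 0.01. Apoe lies at 1.18, 0.15 and -0.92 in the 3 comparisons, and Npc1 at -0.05, 0.49 and 0.66.

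Whether the effect of the mutation differs between diets and between tissues was tested directly. Apoe and Npc1 were the 2 genes whose KI effect differed in both tests. Between HFD and chow in inguinal WAT, which was called for 0.632% of the 17400 genes tested, the KI effect on Apoe was higher on HFD by 1.05 on the log2 scale (SE 0.170, adjusted p 9.45e-04). The KI effect on Npc1 was lower on HFD (difference -0.53, SE 0.110, adjusted p 0.00798), and that on Abca1 had a difference of -0.47 (adjusted p 0.0201). Without the libraries with markers of another tissue the differences were 1.00 for Apoe (adjusted p 0.0117) and -0.52 for Npc1 (adjusted p 0.0366). Neither was called. In one fit of all 6 groups the difference for Apoe was 1.02 (adjusted p 0.0243).

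Between BAT and inguinal WAT on HFD, called for 2.82% of the 17214 genes tested, the KI effect on Apoe was lower in BAT by a difference of -2.07 (SE 0.291, adjusted p 3.48e-05). That on Npc1 was higher in BAT (0.75, SE 0.110, adjusted p 5.86e-05). Both were called under every alternative run for this comparison. The sources do not say whether one mouse gave both tissues, and the libraries were treated as independent.

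The diets were also compared within each genotype. Each diet was deposited as a table of its own, so diet and table cannot be told apart, and the diet comparisons share their mice with the comparisons above. In WT mice 6 of the 10 genes were called between HFD and chow, beside 28.2% of all genes tested. Apoe fell by 1.09 on the log2 scale (SE 0.117, adjusted p 2.83e-08) and Apoc1 fell by 0.77 (adjusted p 0.00609). Mylip rose by 0.92 (adjusted p 9.93e-06), Abcg1 by 0.56 (adjusted p 0.00747), Abca1 by 0.48 (adjusted p 1.97e-05) and Npc1 by 0.33 (adjusted p 0.00107). Abcg1 was not called without mitochondrially encoded genes (adjusted p 0.0102). Soat1 was not called (0.47, adjusted p 0.228), but it was without the libraries with markers of another tissue (1.01, SE 0.244, adjusted p 0.00205). The called genes moved both ways, with the apolipoproteins lower and the transporters and Mylip higher on HFD.

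In KI mice 4 genes were called between the diets, beside 30.6% of all genes tested. Mylip rose by 1.06 (adjusted p 2.49e-06) and Scarb1 by 0.47 (adjusted p 0.00506), whereas Apoc1 fell by 1.22 (adjusted p 9.41e-05) and Nr1h3 fell by 0.48 (adjusted p 2.40e-04). Apoe had a log2 fold change of -0.04 (SE 0.122, adjusted p 0.824) and Abca1 one of 0.01 (SE 0.0822, adjusted p 0.956). All 8 KI mice on HFD held Apoe within the range of the chow-fed mice (3749 to 7384 CPM over both genotypes), while the 8 WT mice on HFD lay below it. Without the libraries with markers of another tissue, 2 genes were called in KI mice. Apoc1 (-0.50, adjusted p 0.0570) and Nr1h3 (-0.36, adjusted p 0.0119) were not.

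BAT and inguinal WAT differed most in Apoc1. In WT mice on HFD 8 of the 10 genes were called between the tissues, beside 55.9% of all genes tested, a background so high that a call says little. Apoc1 was 8.53-fold higher in BAT (log2 fold change 3.09, SE 0.215, adjusted p 3.01e-13), with 394 to 592 CPM there and 39.8 to 80.7 CPM in inguinal WAT. Nr1h2 (0.57), Nr1h3 (0.38) and Npc1 (0.30) were also higher in BAT. The calls of Nr1h3 and Npc1 were lost with a minimum of 10 counts (adjusted p 0.0172 and 0.0328). They were also lost without the libraries with markers of another tissue (0.34, adjusted p 0.0141, and 0.29, adjusted p 0.0154). Scarb1 was not called (-0.32, adjusted p 0.0368), but it was with that minimum (-0.43, adjusted p 0.00509). Soat1 (-1.87), Abcg1 (-1.67), Abca1 (-1.37) and Mylip (-1.05) were lower, and Apoe was not called (-0.28, adjusted p 0.221).

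In KI mice 8 genes were called between the tissues, beside 59.1% of all genes tested, and Apoe was among those lower in BAT (-2.35, SE 0.221, adjusted p 9.05e-11). Apoc1 was 3.74 and Npc1 1.05 higher in BAT on the log2 scale. Tissue and table coincide here too and cannot be told apart.

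**Figure D4:**
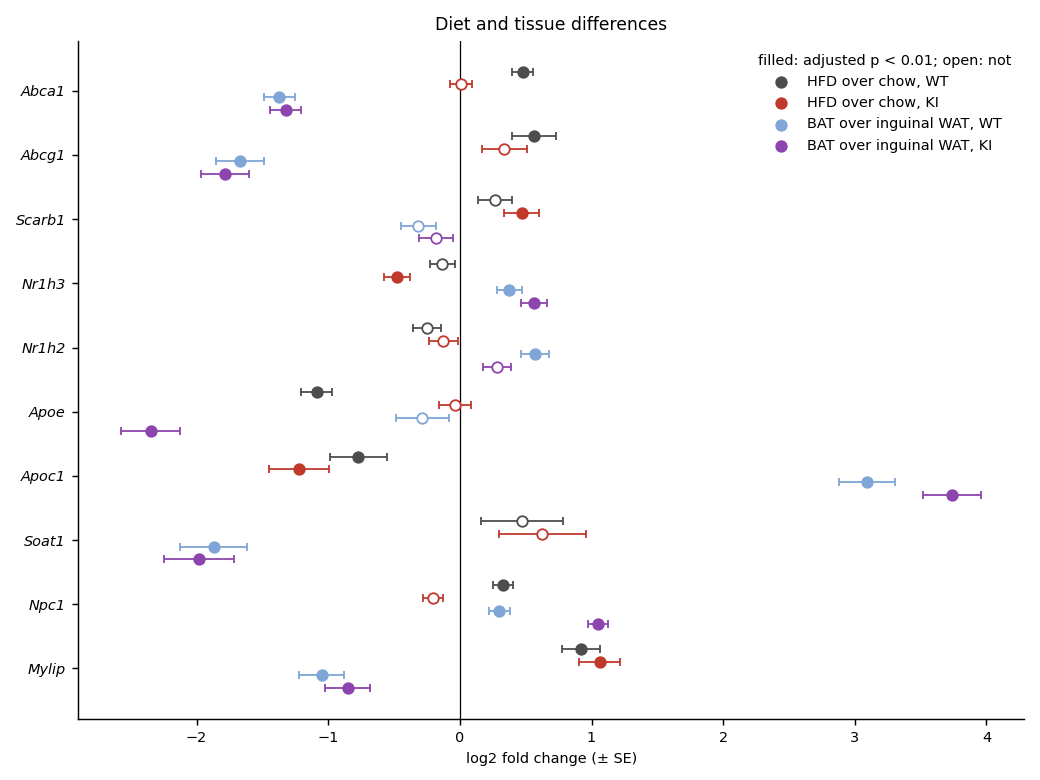
Log2 fold change (points) with its standard error (whiskers) of HFD over chow in inguinal WAT and of BAT over inguinal WAT on HFD, each in WT and in KI mice, filled where the adjusted p is below 0.01. Apoc1 lies at 3.09 and 3.74 for the tissue difference, and Apoe at -1.09 in WT and -0.04 in KI mice for the diet difference.

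Sterol synthesis, the counterpart of these genes, moved mostly in one direction in inguinal WAT on HFD. Of 25 genes of sterol synthesis and SREBP2 tested there, 14 were called lower in KI mice and none higher. This stands beside 11.5% of all genes tested that were called. The median log2 fold change was -0.54, and some genes not called lay above 0, such as Srebf2 (0.24, adjusted p 0.158). Among the genes called lower were Insig1, the sterol-responsive brake on SREBP2 (-2.10), and Nsdhl, a demethylation enzyme (-1.44). On chow the median of the 24 genes tested was -0.17. In BAT none of 24 was called (median -0.18), beside 1.83% of all genes tested. The 10 efflux, LXR and apolipoprotein genes lay on both sides of 0 in each of the 3 comparisons, with medians of -0.14, 0.08 and -0.13.

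**Figure D5:**
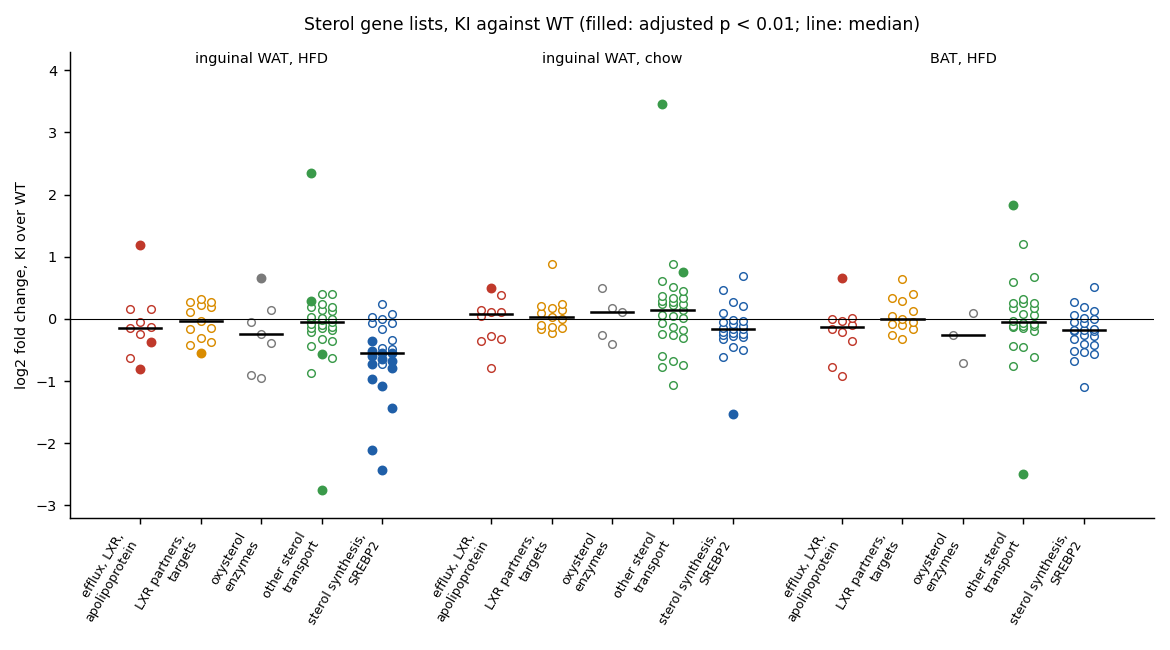
Log2 fold change of KI over WT for each gene tested (points, filled where the adjusted p is below 0.01) in 5 lists of sterol genes and 3 comparisons, with the list median (line). Most sterol synthesis genes lie below 0 in inguinal WAT on HFD (median -0.54). There 14 of 25 were called lower, beside 11.5% of all genes tested that were called. The efflux, LXR and apolipoprotein genes lie on both sides (median -0.14).

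Partners and other targets of LXR were read against the same background. Of 13 such genes tested in inguinal WAT on HFD, 1 (7.69%, beside 11.5% of all genes tested) was called lower in KI mice (Smpdl3a, a phosphodiesterase induced by LXR, log2 fold change -0.54, adjusted p 9.80e-05) and the median was -0.03. Srebf1, the LXR target that drives fatty acid synthesis, had 0.23 (adjusted p 0.304), and Pltp, the phospholipid transfer protein, had -0.42 (adjusted p 0.0257). None of the 13 was called on chow or in BAT. Of 7 enzymes that make or clear oxysterols, Cyp27a1, the mitochondrial sterol 27-hydroxylase, was called higher on HFD (0.66, adjusted p 2.57e-04).

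Among 35 other genes of sterol transport and storage, 29 were tested in inguinal WAT on HFD, where 2 were called higher and 2 lower, a share of 13.8% that is near the 11.5% of all genes tested. Soat2, the second esterifying enzyme, rose from 0.655 to 3.40 CPM (log2 fold change 2.35, adjusted p 9.58e-06), and on chow from 0.511 to 5.86 CPM (3.45, adjusted p 4.17e-04), with 2 to 28 counts in each WT library. Npc2, the lysosomal partner that passes cholesterol to Npc1, fell (-0.57, adjusted p 3.20e-05), as did Gramd1c, a carrier from the plasma membrane to the endoplasmic reticulum (-2.75, adjusted p 5.49e-06). Osbp, an oxysterol-binding transfer protein, was the other gene called higher (0.28, adjusted p 0.00216). On chow Gramd1b, a relative of Gramd1c, also rose (0.76, adjusted p 0.00119). In BAT Nceh1, a cholesterol ester hydrolase, rose (1.83, adjusted p 3.40e-05) and Apol6, an apolipoprotein L, fell (-2.50, adjusted p 4.67e-06).

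Markers of other cell types were counted in the same comparisons. These counts stand beside the share of all genes tested that was called between genotypes. That share was 11.5% for inguinal WAT under HFD, 3.23% under chow and 1.83% for BAT. In inguinal WAT on HFD, 1 of 6 fibroblast markers was called lower (Dpt, -0.75), of 6 adipocyte markers Adipoq was lower (-0.85) and Lipe higher (0.54), Cidea was higher among 3 brown adipocyte markers tested (1.55), and both hepatocyte markers tested were called (Alb 1.76, Serpina1a -1.66). On chow Dpt was lower (-1.29) and Cidea higher (3.02), and in BAT Pi16 (-1.62) and Dpt (-1.37) were lower. No lymphocyte, endothelial or skeletal muscle marker was called in the 3 comparisons, and no epithelial marker passed the low-count filter. The part of these cell types in the members' values was not tested.

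Across the 16 mice on HFD in inguinal WAT, with each genotype centred on its mean, the genes most like each member on the log2 CPM scale were described by Pearson's r, a value that shares library, depth and composition. Apoe was most like Gm15851 (0.91) and Prelp (0.91), whose positions overlap, so they may share reads. Scarb1 was most like Furin (0.94), Soat1 like Rab8b (0.96) and Prkcd (0.94), Nr1h2 like Ndst2 (0.96), Npc1 like Frrs1 (0.90), Abcg1 like Krr1 (0.91) and Abca1 like Oxsm (0.89). No member was among the 3 genes most like another.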

How the data were processed

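Per the labels, reads were trimmed (cutadapt), mapped to GRCm38 (STAR), handled in SAMtools and assigned to genes by the authors using featureCounts (versions, annotation and strand setting not given in the sources used here). The deposited values are raw counts in 3 tables, with 41 columns of 1 mouse each. Columns of inguinal WAT on HFD stand for mice with 2 technical replicates. Of 54838 entries, 1884 without length or counts were left out, and 99 symbols entered repeatedly with identical counts were kept once. Counts were fitted with edgeR 4.0.16 (R 4.3.3) by the quasi-likelihood test with TMM normalization, filterByExpr and robust dispersions, each comparison in its own groups, with Benjamini-Hochberg adjustment over all genes tested. CPM used TMM factors over all 41 columns, and TPM the deposited gene length. Standard errors were derived from each log2 fold change and its F statistic. P-values come from testing each group difference against the variation among mice, and do not cover differences between tables. The scripts were tested on simulated data. Alternatives were DESeq2 1.42.0, RLE factors, other filters, thresholds of 0.05 and 0.001, one fit of all 6 groups, a replicate block and each mouse left out. Leaving out 10 libraries with markers of another tissue (over 100 CPM lymphocyte or epithelial, 2000 CPM muscle) was chosen after seeing the data. All 10 members are named, and of each other list up to 3 called genes with the largest change per KI comparison. One gene that this rule names is not reported here. Genes near Apoe, genes overlapping Npc1, Srebf1 and Pltp, and Cox7a1 and Ppargc1a on chow were named after their values were seen. The members and lists were chosen with earlier results of these data known. Mice sharing a number did not deviate together in any pair of groups throughout (2 of 8 pairs with r over 0.1 on HFD), so numbers were not taken as pairs.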

Additional observations from a re-analysis of the deposited data

Results flagged for a closer look

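Within single groups of mice, 6 of the 60 sets of values (10 genes in 6 groups) held a mouse far from the others by Dixon's gap test, which chance gives in about 1 of 20 sets. In inguinal WAT on chow, WT mouse 4 had 33.65 CPM of Soat1 (the next mouse had 12.98 CPM) and 184.9 CPM of Scarb1 (next 148.8 CPM), and KI mouse 3 had 10.84 CPM of Soat1 (next 7.10 CPM). Both mice are among the libraries with markers of another tissue. In BAT, KI mouse 5 had 298.2 CPM of Apoe (next 1014 CPM), KI mouse 6 had 170.1 CPM of Nr1h3 (next 134.2 CPM) and WT mouse 5 had 93.67 CPM of Abca1 (next 65.96 CPM). Their causes were not tested.

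The effect of the mutation differed between diets or tissues, by a test of the difference itself in edgeR's quasi-likelihood fit, for 2 genes. For Apoe the difference between HFD and chow was 1.05 on the log2 scale (adjusted p 9.45e-04) and that between BAT and inguinal WAT was -2.07 (adjusted p 3.48e-05). For Npc1 these differences were -0.53 (adjusted p 0.00798) and 0.75 (adjusted p 5.86e-05). Without libraries with markers of another tissue neither diet difference was called (adjusted p 0.0117 for Apoe, 0.0366 for Npc1). That of Apoe was also not called in one fit of all 6 groups (adjusted p 0.0243). Both tissue differences were called under every alternative run.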

How the results depend on the processing

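The number of the 10 genes called in inguinal WAT on chow went from 1 to 0 with no low-count filter, without mitochondrially encoded genes and at a threshold of 0.001, and ranged from 0 to 1 with 1 mouse left out. In BAT it went from 1 to 2 in one fit of all 6 groups and to 0 at 0.001. For the KI effect between diets it went from 2 to 1 in the fit of all groups and at 0.001, and to 0 without libraries with markers of another tissue. Between the diets it went from 6 to 3 in WT mice at 0.001, and from 4 to 2 in KI mice without those libraries. The low-count filter was dropped only for KI against WT.

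Directions turned only for genes that were not called. Without those libraries these were Nr1h3 (-0.017) and Mylip (0.017) on chow, Abcg1 (-0.076) and Scarb1 (0.084) in BAT, Apoc1 (0.18), Soat1 (-0.24) and Mylip (-0.12) in the diet difference of the KI effect, Abca1 (-0.043) in its tissue difference and Abca1 (-0.040) between diets in KI mice. The last was also -0.0157 with RLE factors, -0.0306 without mitochondrially encoded genes, -0.0258 in the fit of all groups and -0.0157 in DESeq2. In BAT, Abcg1 was -0.0057 without mitochondrially encoded genes and Scarb1 0.0051 in the fit of all groups. With 1 mouse left out, BAT values ranged from -0.13 to 0.11 for Abcg1, -0.097 to 0.042 for Scarb1 and -0.14 to 0.20 for Mylip. The causes were not tested.

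With a replicate block the number called was 0 on chow (Npc1 adjusted p 0.0393), 2 in BAT (Apoe -1.04, adjusted p 0.00862) and 1 for the diet difference (Npc1 adjusted p 0.0236). Between diets in WT mice, Abcg1 and Apoc1 were not called (adjusted p 0.0151 for both), nor was Npc1 between tissues in WT mice (adjusted p 0.0172). Abcg1 in BAT was -0.011 and Soat1 in the diet difference -0.024. Same-numbered mice correlated at r over 0.1 in 2 of 8 pairs for HFD, 1 of 6 for chow and 2 of 6 for BAT, so the block does not stand for a pairing.

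Over all genes, the fit of all groups called 1242 genes between genotypes for inguinal WAT under HFD, 1088 under chow and 834 for BAT. DESeq2 called 1121 on chow, 715 in BAT, 414 for the diet difference and 844 for the tissue difference. The block called 127, 42 and 180 for chow and the 2 differences. A minimum of 10 counts called 168 for the diet difference. Without libraries with markers of another tissue, 18 and 280 were called for the 2 differences and 3247 between diets in KI mice. Thresholds of 0.05 and 0.001 called 3448 and 880 on HFD, 1252 and 125 on chow, 952 and 59 in BAT, 500 and 19 for the diet difference, and 1280 and 163 for the tissue difference, and 0.001 called 3047 between diets in WT mice. BAT libraries were among the shallowest, so low genes such as Soat1 are least precise there.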
